A study of Mus musculus with 39 samples.

Results

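The genes described here are 8 that make, receive or report the glucocorticoid signal in fat: Hsd11b1, Nr3c1, Fkbp5, Tsc22d3, Sgk1, Zbtb16, Mt1 and Mt2, out of 29411 gene names on the array. They were chosen by name, and each was read from its brightest probe, the other probes serving as a check. RNA of the epididymal fat pad of C57BL/6J mice was measured on 39 one-colour Agilent arrays. LFC mice received a diet with 10% of calories from fat (11 arrays, days 1 to 14 and weeks 0 to 18), and HFC mice a sucrose-rich diet with 60% of calories from fat (10 arrays, from day 6). HF5, HF20 and HF75 mice ate the HFC diet with 5, 20 or 75 µg of KAL-1, a botanical formulation (6 arrays each, weeks 3 to 18). Mice entered the study at weaning, so a later time point is also an older animal. Each diet had a single array at a given time, so time points stood in for replicates and p-values measure the spread between them. The sources used here do not say whether an array held 1 animal or a pool, nor at what hour of the day animals were killed.

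Glucocorticoids reach fat cells through the blood and are also regenerated inside them. Hsd11b1 encodes the reductase that turns the inert keto form of the hormone back into active corticosterone. Nr3c1 encodes the glucocorticoid receptor, which waits in the cytosol with heat shock chaperones, moves to the nucleus on binding the hormone, and acts on DNA at a pair of inverted half-sites. Fkbp5 (a co-chaperone that lowers the receptor's affinity for hormone), Tsc22d3 (an anti-inflammatory leucine zipper protein), Sgk1 (a kinase of salt transport and cell survival) and Zbtb16 (a zinc finger repressor) are standard reporters of the active receptor. Mt1 and Mt2 encode metallothioneins, small proteins that bind zinc and copper. They respond to metals through the factor Mtf1, and also to glucocorticoids. In fat this pathway is known for its part in the making of fat cells and in the breakdown of stored fat.

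Promoter sequences from RefSeq (GRCm38.p6, 250 bases before to 50 bases after each start) were looked up for 7 of the genes and found for 6, with Zbtb16 the missing entry. The half-site AGAACA was searched on both strands, alone and as a pair facing each other 3 bases apart. The core of the metal response element was searched as TGCACNC and TGCGCNC, also on both strands. The half-site alone stood in 19% of 32851 promoters and the metal core in 25.7%, while the perfect pair of half-sites stood in 3 promoters, 0.00913%. One of those 3 was the fifth of 6 Sgk1 starts, where the pair began 189 bases before the start. The stretch around it is shown with the pair in capitals, because Sgk1 is the reporter that varied most here.

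Sgk1, chr10:21993641-21993775, plus strand: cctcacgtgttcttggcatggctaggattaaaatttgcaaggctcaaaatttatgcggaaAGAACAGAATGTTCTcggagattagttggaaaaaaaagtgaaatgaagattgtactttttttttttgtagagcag

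Mt2 and Mt1 lie next to each other on chromosome 8, with 6471 bases between their starts. Their windows held 4 and 3 metal cores and no half-site. The 250 bases before each start are shown, metal cores in capitals, because these neighbours moved together across the arrays. Of the cores, 3 in Mt2 and 1 in Mt1 lie wholly in the stretch shown, and the others reach beyond it.

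Mt2, chr8:94172368-94172617, plus strand: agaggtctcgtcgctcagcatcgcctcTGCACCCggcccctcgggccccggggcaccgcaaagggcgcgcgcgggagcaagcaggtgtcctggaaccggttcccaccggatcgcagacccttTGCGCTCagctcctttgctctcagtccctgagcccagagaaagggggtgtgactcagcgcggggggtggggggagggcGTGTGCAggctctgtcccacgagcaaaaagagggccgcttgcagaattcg
Mt1, chr8:94178839-94179088, plus strand: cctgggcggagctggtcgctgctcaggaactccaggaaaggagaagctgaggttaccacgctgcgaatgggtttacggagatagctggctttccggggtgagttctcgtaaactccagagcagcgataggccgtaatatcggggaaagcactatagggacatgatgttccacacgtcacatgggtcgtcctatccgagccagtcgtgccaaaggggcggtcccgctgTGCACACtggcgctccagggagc

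The single Fkbp5 window held neither motif, and that of Hsd11b1 held 1 metal core and no half-site. One of 3 Tsc22d3 starts had a half-site. These matches are letters in a window and were not tested as binding sites.

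Levels are given as the log2 of the background-subtracted signal minus that of the array's 75th percentile, so 1 unit is a doubling, and levels of different genes are not compared. Of the 39 arrays, 37 had 53.7 to 79.6% of probes well above background, against 97.1% for LFC week 3 and 94.5% for HFC week 12. Those 2 also carried 16400 and 10500 outlier spots, where the others had 21 to 387. The median rank correlation of LFC week 3 with the other arrays was 0.694, outside the range of 0.902 to 0.952 in the 37. All 8 adipocyte markers were well above background on all 39 arrays, and the median of that list ranged from 3.56 to 6.49. Epididymis markers were uneven between arrays, with a list median from -8.51 to 3.46. The median of the mesothelium list was -0.81 to 1.29 on the early arrays and -6.89 to 1.63 on the late ones. The part of these tissues in differences between weeks was not tested. Scan date ran with time point. Days 1 to 14 were scanned apart from weeks 0 to 18, so apart from week 0 the early period and the scan period cannot be told apart.

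Each of the 8 chosen probes was well above background on all 39 arrays, except that the Tsc22d3 spot on LFC week 3 was an outlier and was left out. The Mt2 spot was saturated on 20 of 39 arrays, and its level there is a lower bound. Sgk1 and Mt1 were saturated on 2 arrays each. The array-to-array SD of Sgk1 was 1.39, higher than that of 93.3% of 15742 well-detected probes, and the SDs of Mt1 (1.25) and Mt2 (1.22) stood at 89.8% and 89%. Tsc22d3 (SD 0.52) and Nr3c1 (SD 0.55) lay at 18.7% and 23.5%, below the median SD of 0.71. The receptor's own transcript thus varied less than most probes, and the kinase and the metallothioneins more.

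**Figure D1:**
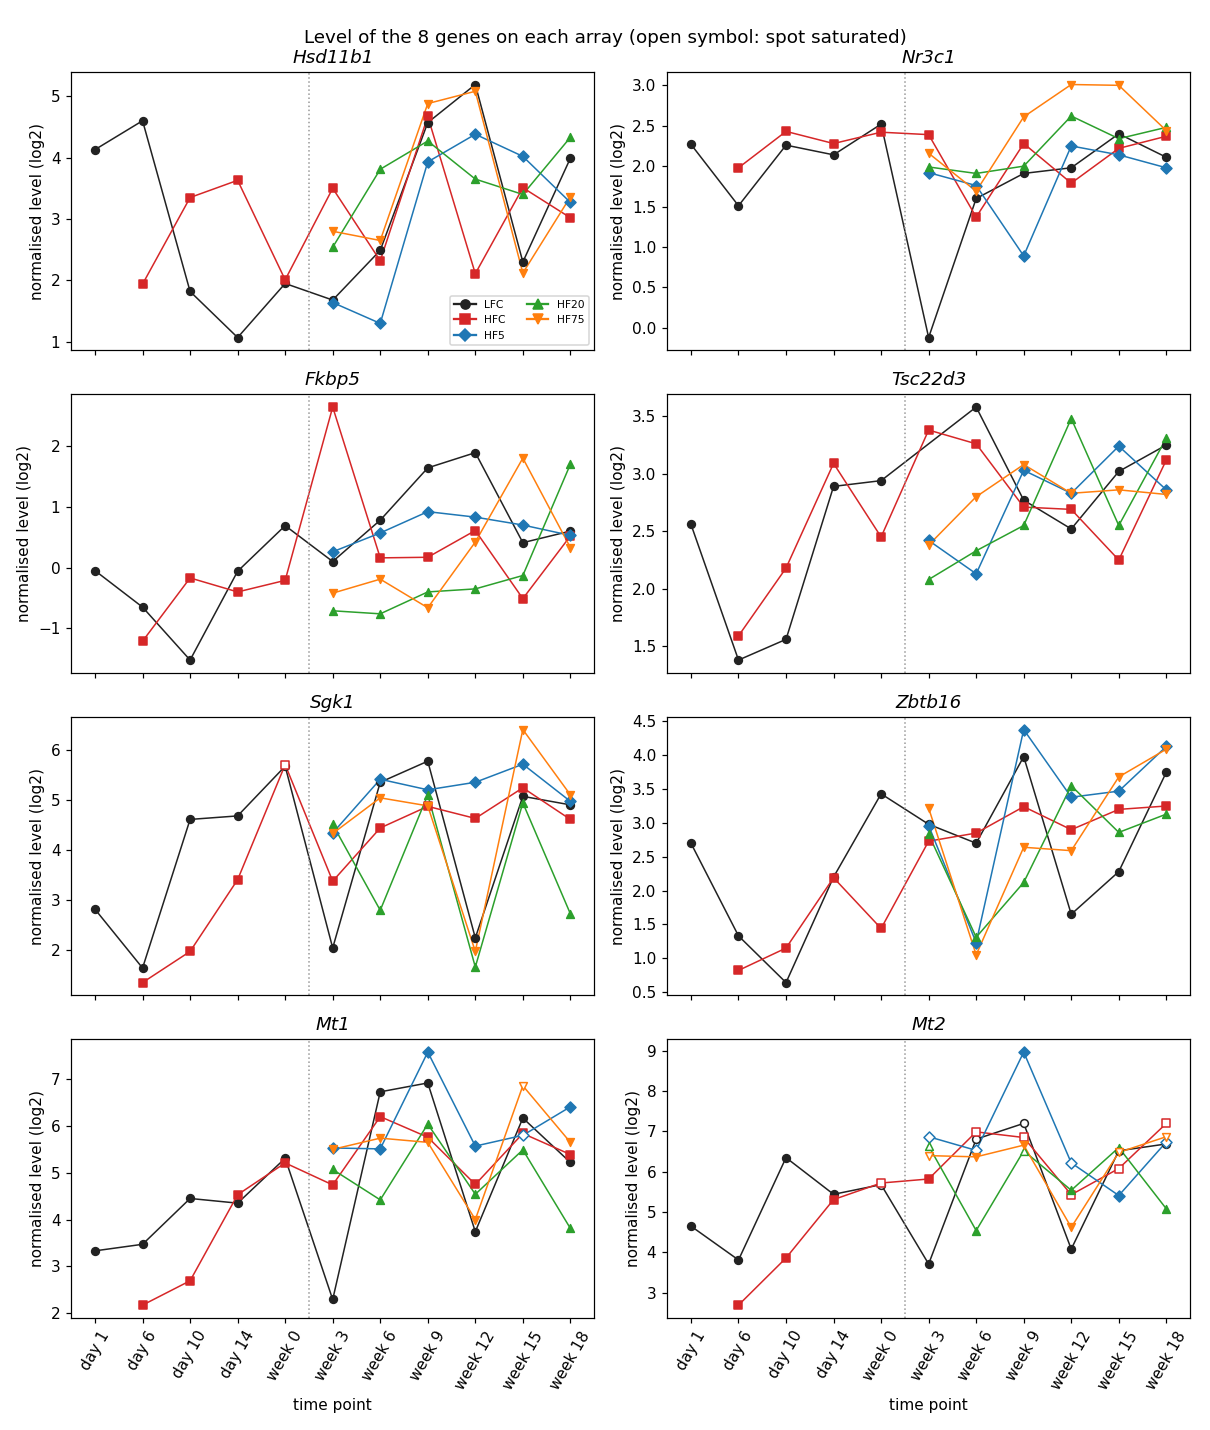
Normalised level (log2) of each gene against time point, 1 point per array, coloured by diet, with open symbols where the spot was saturated; the dotted line separates the early time points from weeks 3 to 18. Sgk1 spans 1.36 to 6.40 with sharp single-array drops shared with Mt1 and Mt2, while Tsc22d3 stays between 1.38 and 3.58.

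Hsd11b1, the activating enzyme, differed between time points more than between diets. In weeks 3 to 18 time point accounted for 51.1% of its sum of squares and diet for 3.8%, where the medians over all probes were 28.9% and 13%. At week 9 the 5 diets lay between 3.93 and 4.88, and at week 6 between 1.30 and 3.81, so those weeks did not overlap. The part of the uneven mesothelium markers in this was not tested. The highest Hsd11b1 levels were 5.19 on LFC week 12 and 5.08 on HF75 week 12, and the lowest 1.07 on LFC day 14. The mean over weeks 3 to 18 was 3.37 ± 1.41 in LFC, 3.19 ± 0.93 in HFC, 3.09 ± 1.31 in HF5, 3.67 ± 0.66 in HF20 and 3.48 ± 1.23 in HF75 (SD, n = 6 each). The order HF20, HF75, LFC, HFC, HF5 has no neighbours that differ by more than their SD. LFC and HFC crossed within the first 2 weeks: LFC read 4.60, 1.82, 1.07 and 1.95 at day 6, day 10, day 14 and week 0, and HFC read 1.94, 3.35, 3.63 and 2.01. Day 14 and week 0 are the same length of feeding, yet they differed by 0.88 in LFC and by -1.62 in HFC (week 0 minus day 14).

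Nr3c1, the receptor, kept to a narrow band in HFC, from 1.37 to 2.43 with a median of 2.28 over 10 arrays. In LFC its 11 values ran from -0.12 to 2.52 with a median of 2.11, the lowest being the LFC week 3 array described above. Means over weeks 3 to 18 were 2.48 ± 0.51 in HF75, 2.22 ± 0.30 in HF20, 2.07 ± 0.41 in HFC, 1.82 ± 0.49 in HF5 and 1.65 ± 0.90 in LFC (SD, n = 6). No neighbours in that order were apart by more than their SD. The next brightest Nr3c1 probe followed the chosen one with r = 0.62 over 39 arrays, and the 2 dimmest with -0.09 and 0.36 over 38.

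Among the reporters, Fkbp5 stood out on single arrays. HFC week 3 read 2.64, where the other 9 HFC arrays lay between -1.21 and 0.61. HF20 week 18 read 1.70, where the other 5 HF20 arrays lay between -0.76 and -0.13. In LFC the highest values were 1.64 at week 9 and 1.89 at week 12, and HF5 held the tightest range, 0.26 to 0.92. The other Fkbp5 probes followed the chosen one only loosely, with r = 0.11 over 38 arrays and 0.43 over 39. Tsc22d3, whose second probe tracked the first with r = 0.77, ranged from 2.08 to 3.58 in weeks 3 to 18. Its lowest levels were at LFC day 6 (1.38), LFC day 10 (1.56) and HFC day 6 (1.59).

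Zbtb16 differed between weeks more than between diets, at 46.8% of the sum of squares for time point and 6.2% for diet. At week 6 the 5 diets read 2.70 (LFC), 2.85 (HFC), 1.23 (HF5), 1.31 (HF20) and 1.05 (HF75), and at week 18 they read 3.75, 3.25, 4.13, 3.13 and 4.09. All 5 week 18 values were above all 5 week 6 values. At week 6 the HF20 and HF75 arrays were scanned on another date than the others. The parts of scan date and of the uneven mesothelium markers in the week 6 levels were not tested.

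Sgk1 fell into a low and a high set of arrays. Its widest gap ran from 3.41 to 4.33, with 12 arrays below and 27 above. Below were LFC days 1 and 6 and weeks 3 and 12, HFC days 6, 10 and 14 and week 3, HF20 weeks 6, 12 and 18, and HF75 week 12. No HF5 array was among them. At week 12 LFC, HF20 and HF75 read 2.25, 1.67 and 1.98, and HFC and HF5 read 4.63 and 5.35. The same 12 arrays were the 12 with the lowest median of 9 immediate early genes (Fos, Fosb, Jun, Junb, Egr1, Egr2, Ier2, Atf3 and Nr4a1), transcripts that rise within minutes of handling or other stimuli. That median was -0.45 to 3.97 on them and 4.69 to 5.92 on the other 27. As a description, r of Sgk1 with the list was 0.64 within the 12 and 0.14 within the 27. Other lists moved with Sgk1 as well. Over all arrays its r was 0.81 with the 4 endothelium markers Pecam1, Cdh5, Tek and Kdr. It was 0.72 with the acute phase list and 0.67 with the circadian clock list. With time-point means removed these were 0.80, 0.78 and 0.74. With a list of 19 further glucocorticoid targets r was 0.78, or 0.76 with time-point means removed. These r values with other lists pool the low and high sets. The part of these signals in the Sgk1 level was not tested. The genes most like Sgk1 over 36 arrays, again pooled over both sets, were Arc (r = 0.97), Spry1 (0.95) and Mef2a (0.94). This was among 17613 names after time-point means were removed, and Arc is itself an immediate early gene.

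The metallothioneins shared this pattern in part. Of the 12 lowest arrays for Mt1, 10 were in the low Sgk1 set, and the same count held for Mt2. The count was 6 for Zbtb16, 5 for Fkbp5, 4 for Nr3c1 and 2 for Hsd11b1. Mt1 ranged from 2.17 (HFC day 6) to 7.58 (HF5 week 9), and Mt2 from 2.69 to 8.97 on those same arrays. Over all arrays r with the immediate early list was 0.78 for Mt1 and 0.79 for Mt2, or 0.72 and 0.75 with time-point means removed. With the list of further glucocorticoid targets it was 0.81 and 0.74, or 0.77 and 0.67. These r values with lists pool the low and high Sgk1 sets. With Sgk1, r of Mt1 was 0.59 within the 12 low arrays and 0.46 within the 27 others, while r of Mt2 was 0.68 and -0.12, the second over arrays that include all 20 with a saturated Mt2 spot. The name most like Mt2 was Junb, an immediate early gene, at r = 0.91, and Mt1 had Gm13637 and Junb at 0.86. The Junb spot was saturated on 26 of 39 arrays and the Mt2 spot on 20, so the likeness of Mt2 to Junb is between clipped probes. That of Mt1, saturated on 2 arrays, is to a clipped Junb. Between the 2 metallothioneins r was 0.89 and Spearman's rho 0.83 over 38 arrays with time-point means removed (permutation within time points, 2-sided p = 1e-05, the smallest that 100000 resamples can give; adjusted p = 8e-05 over 8 relations). Without the 2 arrays farthest from the Mt1 median r was 0.84. Whether the 2 probes share signal was not tested.

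**Figure D2:**
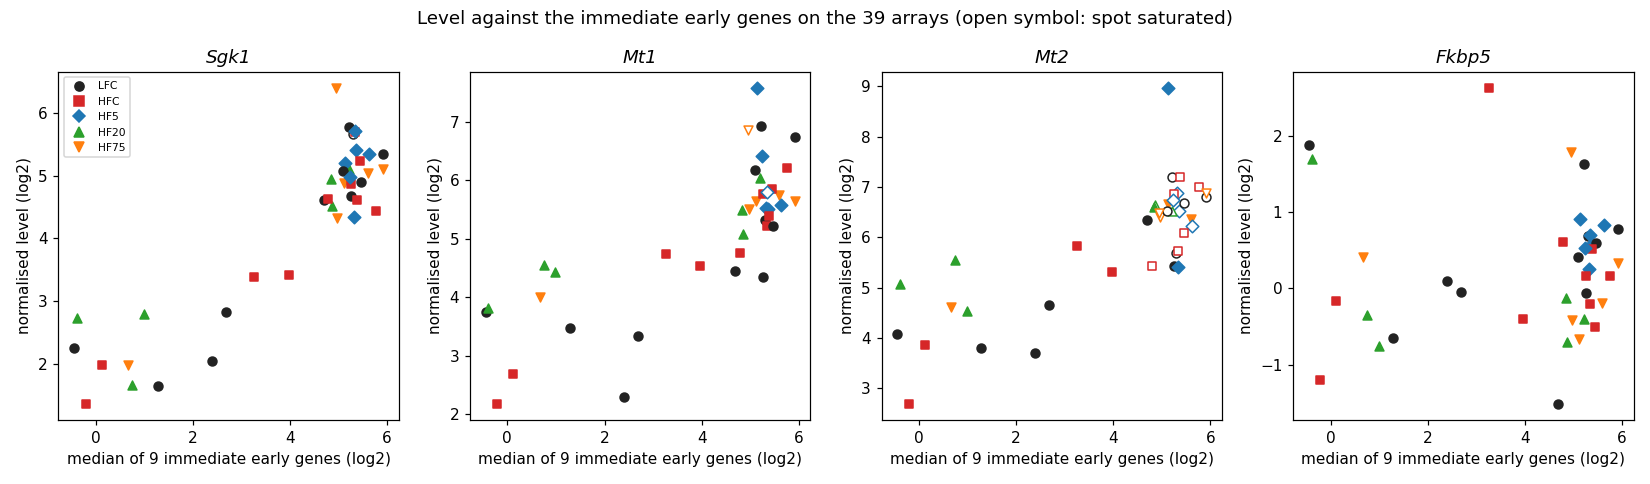
Level (log2) of Sgk1, Mt1, Mt2 and Fkbp5 against the median of 9 immediate early genes (log2) on the 39 arrays, coloured by diet, with open symbols where the spot was saturated. The 12 arrays with a list median of 3.97 or less are the 12 with Sgk1 at 3.41 or less; Fkbp5 spreads from -1.52 to 2.64 along the axis.

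Fkbp5 was then set against the other 7 genes, to ask whether they rose and fell with it. Over all arrays it went with Tsc22d3 (r = 0.56, rho 0.54, permutation p = 0.00025, adjusted p = 0.001, 38 arrays) and Zbtb16 (r = 0.47, rho 0.52, permutation p = 0.00262, adjusted p = 0.00699, 39 arrays). With time-point means removed these became 0.41 (permutation p = 0.0487, adjusted p = 0.195) and 0.19 (permutation p = 0.285, adjusted p = 0.76). Neither relation therefore held within time points after adjustment. Without the 2 arrays farthest from the Fkbp5 median the within-time-point r with Tsc22d3 was 0.27. With Mt1 and Mt2 the within-time-point r was 0.10 and -0.06, and with the enzyme Hsd11b1 it was 0.11. Because Sgk1 fell into separate sets, its r with Fkbp5 is given within them, as a description: 0.47 over the 12 low arrays and 0.60 over the 27 others. Those values keep the time-point means; with the means removed r was 0.04 over all 38 arrays (permutation p = 0.843, adjusted p = 0.964). With the receptor Nr3c1 r was 0.00 and rho -0.18. Pairs of reporters without Fkbp5 are given as a description, with time-point means removed, and were not tested. For Zbtb16 r was 0.41 with Tsc22d3, 0.24 with Sgk1, 0.49 with Mt1 and 0.40 with Mt2. For Sgk1 it was 0.75 with Mt1 and 0.70 with Mt2, pooled over its low and high sets. For Tsc22d3 it was -0.20 with Sgk1, 0.08 with Mt1 and 0.01 with Mt2. Pooled over the low and high Sgk1 sets, r of Hsd11b1 with Sgk1 was -0.43, as a description with time-point means removed. Within the sets, time-point means kept, it was 0.18 over the 12 low arrays and 0.13 over the 27 others. With time-point means removed, r of Hsd11b1 was 0.54 with the macrophage list, 0.49 with the adipocyte list and -0.57 with the endothelium list. The part of these cell types in its level was not tested. In a whole fat pad, fewer cells of a type and less RNA per cell cannot be told apart.

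The first diet comparison asked whether the high fat, high sucrose diet changed these genes, over the 10 time points that LFC and HFC shared. None of the 8 passed an adjusted p of 0.05 in limma with time point as a block, nor did any of 29169 probes (0%). At an unadjusted p below 0.05 there were again 0 of 8 genes, against 3.05% of probes. Nr3c1 differed most, by 0.32 on the log2 scale (HFC minus LFC, SE 0.26, p = 0.232, adjusted p = 0.998), higher in HFC at 6 of 10 time points. Without week 3, where the LFC array was the one that stood apart, the Nr3c1 difference was 0.080. Hsd11b1 differed by 0.04 (SE 0.52), its mean being 3.01 ± 0.89 in HFC and 2.97 ± 1.47 in LFC (SD, n = 10 each). Its 95% interval, -1.09 to 1.17, still allows a doubling either way. For Fkbp5 the difference was -0.23 (SE 0.36), and HFC was lower at 8 of 10 time points; without week 3 it was -0.54. Sgk1 (-0.24), Mt1 (-0.14), Zbtb16 (-0.12), Tsc22d3 (-0.06, over 9 time points) and Mt2 (-0.03) all had intervals that held 0. The narrowest was that of Tsc22d3, -0.48 to 0.35.

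Over weeks 3 to 18 alone, with all 5 diets in the fit, again 0 of 8 genes passed on the adjusted p (0% of 31450 probes) and 0 of 8 on the unadjusted p (2.31% of probes). The largest differences were 0.56 for Mt2 (SE 0.51, p = 0.285, adjusted p = 1) and 0.42 for Nr3c1 (SE 0.30, p = 0.175, adjusted p = 1). When the week 3 LFC array and the week 12 HFC array were left out, Mt2 differed by 0.07 and Nr3c1 by 0.21. Without week 3 in all diets Nr3c1 differed by 0.0060. The Mt2 spot was saturated on 5 of 6 HFC and 4 of 6 LFC arrays of these weeks.

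The next comparisons asked what KAL-1 did on the high fat diet; all 3 doses were set against the same 6 HFC arrays. At 5 µg, 0 of 8 genes passed on either p, against 0% of probes on the adjusted and 3.42% on the unadjusted p. Sgk1 was higher in HF5 than in HFC in all 6 weeks, with means of 5.16 ± 0.47 and 4.53 ± 0.63 (SD, n = 6). The difference was 0.63 (SE 0.53, limma p = 0.248, adjusted p = 0.954). Of the 9 immediate early genes, 8 were also higher in HF5, 0 of them at an unadjusted p below 0.05. Their list median was 0.61 against -0.03 over all probes, and their part in the Sgk1 difference at this dose was not tested. Mt1 differed by 0.62 (SE 0.48, p = 0.212, adjusted p = 0.954), with 7.58 at week 9 as the highest HF5 value; without week 9 the difference was 0.38.

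At 20 µg the counts were 0 of 8 on the adjusted p (0% of probes) and 0 of 8 on the unadjusted p (4.84%). Sgk1 read 4.51, 2.80, 5.10, 1.67, 4.94 and 2.73 in HF20 at weeks 3 to 18, against 3.38, 4.44, 4.87, 4.63, 5.24 and 4.61 in HFC. It was lower in HF20 at 4 of 6 weeks, and at weeks 6, 12 and 18 it lay below every HFC value of weeks 3 to 18. The mean difference was -0.90 (SE 0.53, 95% interval -2.01 to 0.20, limma p = 0.103, adjusted p = 0.78). It was -0.49 without week 12 and -1.31 without week 3. Those 3 arrays belong to the low set named above, and 7 of 9 immediate early genes were lower in HF20 at an unadjusted p below 0.05, with a list median of -2.07 against -0.07 over all probes. Their part in the Sgk1 difference was not tested. For Fkbp5 HF20 minus HFC was -0.71 (SE 0.49, p = 0.162, adjusted p = 0.78), and the value rests on week 3. Without week 3 the difference was -0.18.

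At 75 µg, 0 of 8 passed on the adjusted p (0% of probes) and 0 of 8 on the unadjusted p (1.5%). Nr3c1 was higher than in HFC in 5 of 6 weeks, by 0.41 (SE 0.30, p = 0.185, adjusted p = 1; 0.25 without week 12), and Fkbp5 differed by -0.38 (SE 0.49, p = 0.439, adjusted p = 1). For the mean of the 3 doses the counts were 0 of 8 (0% of probes) and 0 of 8 (1.75%), and the 8 differences lay between -0.35 (Fkbp5) and 0.22 (Hsd11b1). The widest interval at any single dose, that of Sgk1, spanned 2.21 log2 units, so a doubling of this gene lies inside the error of a single comparison.

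**Figure D3:**
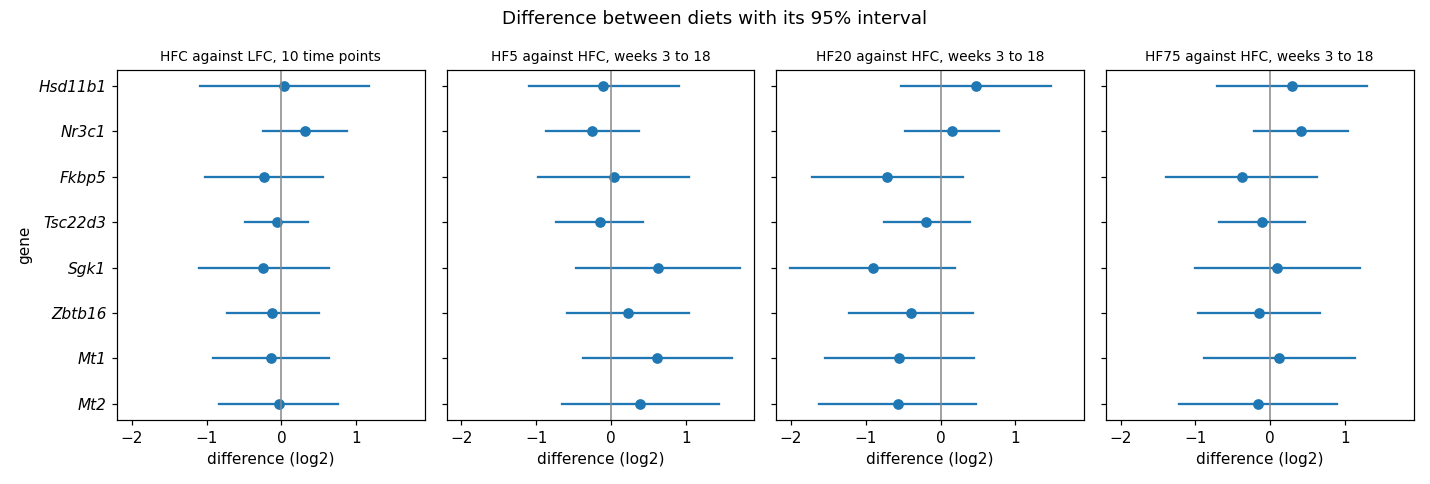
Difference in level (log2) of each gene between diets, with its 95% interval from limma, for HFC minus LFC over 10 time points and for each KAL-1 dose minus HFC over 6 weeks. Every interval crosses 0; those of Tsc22d3 are the narrowest, and Sgk1 lies at 0.63, -0.90 and 0.09 for the rising doses.

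Late and early arrays were compared within each diet, which asks how the genes changed with feeding time and age. In LFC the 6 late arrays (weeks 3 to 18) were set against the 5 early ones (days 1 to 14 and week 0). None of the 8 genes passed on the adjusted p, against 0.49% of 30421 probes, and 1 of 8 was below 0.05 unadjusted, against 5.52%. That gene was Fkbp5, which read -0.05, -0.65, -1.52, -0.06 and 0.69 at days 1, 6, 10, 14 and week 0 and had a late range of 0.10 to 1.89 with a median of 0.69. Late exceeded early by 1.22 (SE 0.47, limma p = 0.0215, adjusted p = 0.754), with overlap through the week 0 array. Against week 0 alone, a single array scanned in the same period as the late ones, the difference was 0.21. The week 0 spots of Sgk1 and Mt2 were saturated in LFC too. The other 7 differences in LFC lay between -0.49 (Nr3c1) and 1.00 (Mt1).

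In HFC the clearest separation was that of Zbtb16, which read 0.82, 1.15, 2.19 and 1.44 at days 6, 10 and 14 and week 0 and 2.73, 2.85, 3.24, 2.90, 3.20 and 3.25 at weeks 3 to 18. Every late value was above every early one, and the late values spread by only 0.52. The difference was 1.63 (SE 0.29, 3.09-fold in signal, limma p = 0.000167), 13th of 29398 probes by p, but its adjusted p was 0.207. Non-overlap with late above early was found for 0.929% of probes, and among the 8 genes for Zbtb16 alone. Against week 0 alone, a single array scanned in the late period, the difference was 1.59. The late HFC arrays also differed in markers of cell types, where 17.3% of all probes were below an unadjusted p of 0.05. Medians were -1.55 for mesothelium (5 of 5 lower, 2 below 0.05) and -0.79 for adipocytes (7 of 8 lower, 1 below 0.05). They were -0.70 for macrophages (4 of 6 lower, 2 below 0.05) and 0.78 for endothelium (4 of 4 higher, 0 below 0.05), none past the adjusted p in limma. Adipocyte spots were saturated on 0 (Lipe) to 39 (Fabp4) of the 39 arrays, which limits that median. The adipocyte list median was 5.23 to 5.92 early and 3.84 to 6.05 late, and the endothelium list median 0.86 to 3.49 early and 1.23 to 3.69 late. The mesothelium list median was 0.04 to 1.29 early and -5.38 to 1.63 late, and the macrophage list median 0.50 to 2.47 early and 0.15 to 1.62 late. Skeletal muscle markers differed by a median of 0.89 (5 of 5 higher, 1 below 0.05) and adipose stroma markers by 0.56 (4 of 5 higher, 0 below 0.05). The medians were 0.43 for lymphocytes, 0.02 for epididymis and -0.20 for blood. None of these passed the adjusted p in limma. Late LFC arrays shared part of this. Their medians were -1.76 for mesothelium (5 of 5 lower) and -0.22 for adipocytes (7 of 8 lower). They were 1.5 for lymphocytes (5 of 5 higher, 1 below 0.05 unadjusted) and 0.77 for skeletal muscle. Other LFC medians had the opposite sign to HFC: macrophages 0.28, endothelium -0.16, adipose stroma -0.23, blood 0.17 and epididymis -1.64. No listed marker passed the adjusted p in LFC. The part of these cell types in the late differences was not tested. For Zbtb16 in LFC the same contrast gave 0.83 (SE 0.56), and against the single LFC week 0 array it was -0.54. The change in HFC minus that in LFC was 0.64 (SE 0.57, p = 0.287, adjusted p = 0.877), so a difference between the diets was not shown.

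Mt1 and Mt2 were also among the 3 of 8 genes below an unadjusted p of 0.05 in HFC. The background there was high, with 17.3% of probes below that line and 0% past the adjusted one. Mt2 read 2.69, 3.86, 5.31 and 5.72 early and had a late range of 5.43 to 7.20 with a median of 6.46, a difference of 2.0 (SE 0.60, limma p = 0.00643, adjusted p = 0.216). Its spot was saturated on 5 of the 6 late arrays and on week 0 only among the early ones, so the late level is a lower bound. Mt1 read 2.17, 2.69, 4.53 and 5.21 early and 4.74 to 6.20 late, a difference of 1.80 (SE 0.59, limma p = 0.0111, adjusted p = 0.218). Both were highest at week 0 among the early arrays, and against week 0 alone the differences were 0.68 and 0.24. Sgk1 read 1.36, 1.98, 3.41 and 5.70 on the same 4 early arrays, week 0 being saturated, and its late minus early difference was 1.42 (SE 0.73, p = 0.0792, adjusted p = 0.325, limma). The immediate early list moved with them, with a median of -0.21 to 5.34 on the early and 3.26 to 5.76 on the late HFC arrays; its part in these differences was not tested.

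The HFC result depended on week 0 and on how arrays were weighted. Without week 0, which leaves days 6 to 14 as the early arrays, 2 of the 8 genes passed, Zbtb16 at 1.64 (adjusted p = 0.0405) and Sgk1 at 2.28 (adjusted p = 0.0471), against 2.81% of probes, and early and scan period cannot then be told apart. With array weights 4 of 8 passed (Zbtb16, Sgk1, Mt1 and Mt2), against 27.3% of probes. Tsc22d3 (0.57), Fkbp5 (1.1) and Hsd11b1 (0.46) also had positive differences in HFC and Nr3c1 a negative one (-0.21); none was below 0.05 unadjusted. The median over the 8 genes was 1.26 in HFC and 0.71 in LFC, beside 0.02 and -0.09 over all probes.

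**Figure D4:**
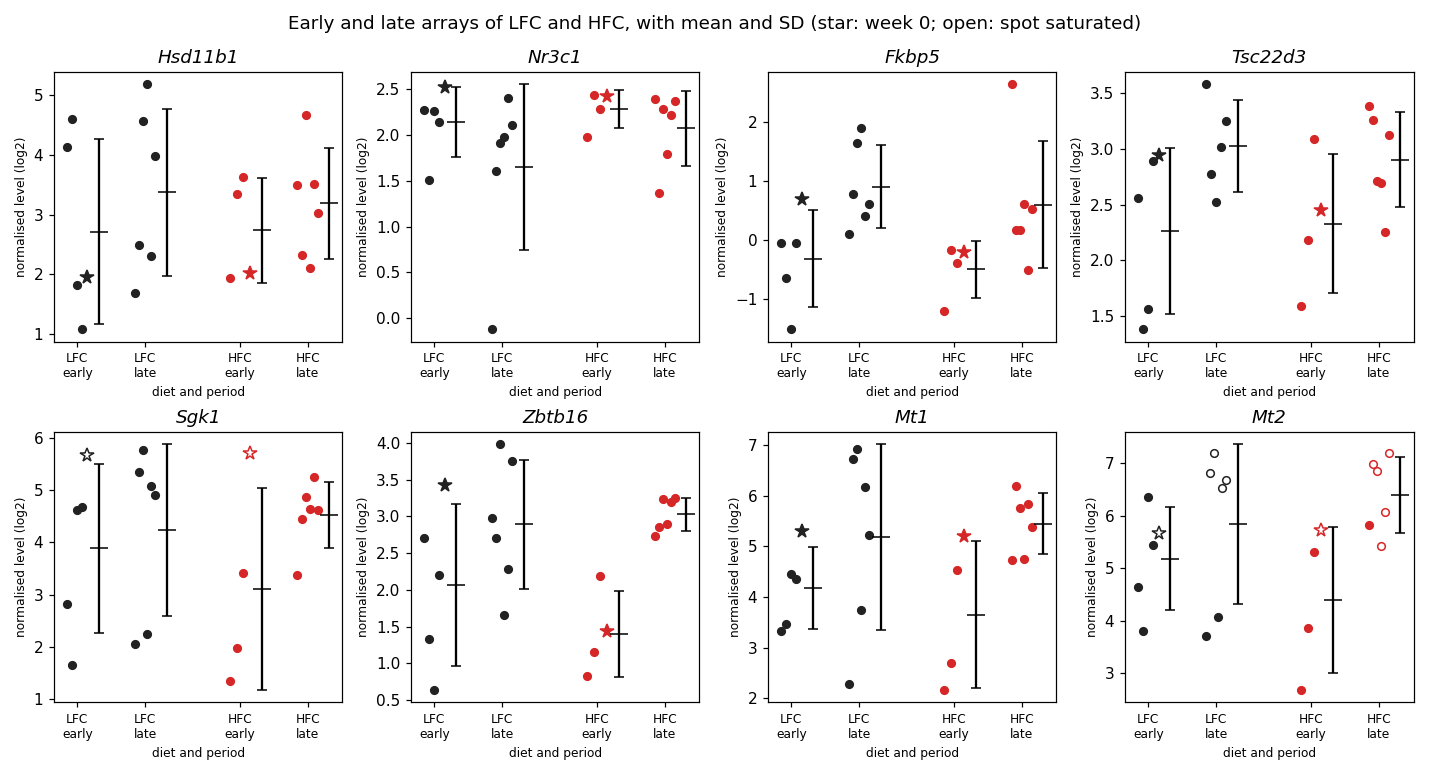
Level (log2) of each gene on the early and late arrays of LFC and HFC, with the mean and SD beside the points; stars mark week 0 and open symbols a saturated spot. The 6 late HFC values of Zbtb16 (2.73 to 3.25) lie above its 4 early values (0.82 to 2.19), while the other 7 genes overlap.

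Whether the diet effect itself changed between the periods was tested on the HFC minus LFC differences. None of the 8 passed on the adjusted p (0% of probes), and 1 of 8 was below 0.05 unadjusted, against 5.14%. For Mt2 HFC minus LFC averaged -0.92 ± 1.16 early (SD, n = 4) and 0.56 ± 1.00 late (SD, n = 6). The change was 1.48 (SE 0.65, limma p = 0.0414, adjusted p = 0.841). Most late spots of both diets were saturated, so the size of this change is uncertain in either direction. With the week 3 LFC and week 12 HFC arrays left out the change was 0.90. Sgk1 (1.34, SE 0.75, p = 0.101) and Mt1 (1.01, SE 0.70, p = 0.174) differed by amounts whose intervals held 0.

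No gene of the wider pathway passed on the adjusted p (limma) in any of the 9 comparisons, over lists of 7 supply and transport genes, 10 receptor chaperones and coregulators, 19 further glucocorticoid targets and 5 metal response genes. At an unadjusted p below 0.05, 10 of 40 tested were higher and 3 lower late in HFC, where 17.3% of all probes were below that line. In LFC 1 was higher and 2 lower late, beside 5.52% of all probes, and in the change of the diet difference 5 were higher and 1 lower, beside 5.14%. HF20 gave 3 of 41 lower, beside 4.84% of all probes, and HFC against LFC in weeks 3 to 18 gave 1 of 41 lower, beside 2.31%. The other 4 comparisons gave 0, beside 1.5 to 3.42% of all probes. In HFC against LFC over 10 time points, the further targets had 0 of 19 genes below 0.05 unadjusted, beside 3.05% of all probes. Their median was -0.13, beside 0.03 over all probes. Their smallest p belonged to Lcn2, a lipocalin of the acute phase, at -1.08 (SE 0.61, p = 0.0988, adjusted p = 0.998), and Fam107a followed at -0.65 (SE 0.49). Hsd11b2, the enzyme that inactivates the hormone, differed by 0.34 (SE 0.23, p = 0.169). Fkbp4, the co-chaperone that counters Fkbp5, differed by 0.32 (SE 0.28).

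Late against early, Hsd11b2 had the smallest p of the supply list in both diets, at -1.96 in LFC (SE 0.48, limma p = 0.00144, adjusted p = 0.161) and -1.68 in HFC (SE 0.45, limma p = 0.00346, adjusted p = 0.209). For Fkbp4 late minus early was -1.35 in LFC (SE 0.56, limma p = 0.0308, adjusted p = 0.839) and -0.84 in HFC (SE 0.28, limma p = 0.013, adjusted p = 0.223). Both had the opposite sign to the chosen Fkbp5 probe. The second brightest Fkbp5 probe gave -0.072 in HFC, so the opposed sign did not hold for it there. Of the 19 further targets in HFC, 7 were higher and 1 lower below 0.05 unadjusted, beside 17.3% of all probes, with a median of 0.73 against 0.02. Nfkbia, the inhibitor of NF-kappaB, whose spot was saturated on 20 of 39 arrays, was at a measured 2.14 (SE 0.64, p = 0.00643) and Lcn2 at -3.24 (SE 0.88, p = 0.00358), with adjusted p of 0.216 and 0.209. In LFC 0 of 19 were below that line, beside 5.52% of all probes, and the median was 0.03. Among the metal response genes, Slc39a14, a zinc importer, stood at 1.30 in HFC (SE 0.51, p = 0.0272, adjusted p = 0.253), and Mtf1 at 0.69 in LFC (SE 0.29, p = 0.0353, adjusted p = 0.856). At 20 µg of KAL-1 the Slc39a14 difference from HFC was -1.23 (SE 0.41, p = 0.007, adjusted p = 0.78), and Rgs2 and Errfi1 were at -1.07 and -1.44.

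The genes whose pattern was nearest to the remaining members are given as a description over the same 36 arrays. Nr3c1 went with Arl6ip6 and Rbl1 (both r = 0.84), Hsd11b1 with 2010005J08Rik (0.78) and Car13 (0.77), and Tsc22d3 with Crlf3 (0.76), Gramd3 (0.73) and Pmp22 (0.72). Zbtb16 had Map3k6 (0.72) and Fkbp5 had BC023892 (0.70) as nearest. Mt2 stood 4th among all names for likeness to Mt1 (r = 0.85), behind the 3 other nearest names. In the other direction Mt1 stood 34th for likeness to Mt2.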

How the data were processed

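RNA of epididymal fat was measured on 39 one-colour Agilent arrays (40628 probes after controls). Per the file headers, the deposited signal intensity of each spot was background-subtracted by the scanner software, Feature Extraction 10.5.1.1; the labels' processing notes name version 9.1 instead. A further deposited table holds log2 differences of each array from the LFC array of its time point, which the authors made, and was used as an alternative only. Here log2 of the intensity minus the array's 75th percentile was taken with no pseudocount, outlier spots were set to missing, and probes well above background on at least 10 of 20, 6 of 30, or 5 arrays within a diet were tested. Differences were tested with limma 3.58.1 in R 4.3.3, time point as a block between diets, with Benjamini-Hochberg adjustment over all tested probes at 0.05, and checked on simulated data. The block follows the shared time point of the labels. Relations used 100000 permutations (Python 3.11.15, scipy 1.17.1). The genes named are the 8 members and, per pathway list and comparison, those with the smallest p. The members and lists were chosen with earlier results of these data known. The number of arrays limits precision.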

Additional observations from a re-analysis of the deposited data

Results flagged for a closer look

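In 4 of 32 sets of arrays (1 gene in 1 diet other than LFC, 6 or 10 arrays), the highest or lowest array stood apart from its nearest neighbour by more than Dixon's 95% limit, where chance gives about 1 in 20. Nr3c1 read 0.89 on HF5 week 9, and the next HF5 value was 1.76. Fkbp5 read 2.64 on HFC week 3, the next value being 0.61, and 1.70 on HF20 week 18, the next being -0.13. Mt2 read 4.62 on HF75 week 12, the next being 6.37; that array was also the only HF75 array in the low Sgk1 set, and the part of the immediate early genes in it was not tested.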

How the results depend on the processing

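Of 1167 values recomputed under the alternatives, 1083 were counted as unchanged. For a difference or an r this means the same sign and the same side of an adjusted p of 0.05. For a count of calls it means a similar count. No member was called in the main setting, so for most member differences it amounts to an unchanged sign. No member was called in the diet comparisons under any alternative, including a t-test without limma's moderation and the authors' table. That t-test took time points as replicates, because the study's t-test between replicate arrays could not be made. A sign that turned there thus turned within its error, and the cause was not tested. For HFC minus LFC over 10 time points the sign turned with normexp background for Zbtb16 (0.049), Mt1 (0.0205) and Mt2 (0.064), with quantile scaling for Hsd11b1 (-0.019) and Mt2 (0.031), and with median scaling for Zbtb16 (0.017) and Mt2 (0.099). It turned for Tsc22d3 with outlier spots kept (0.10), in the authors' table (0.10) and with no replicate block for time point (0.015). It turned for Hsd11b1 with array weights (-0.21) and for Hsd11b1 (-0.0031) and Zbtb16 (0.012) with slide as a random block. Leaving out each time point gave -0.24 to 0.38 for Hsd11b1, 0.080 to 0.39 for Nr3c1, -0.54 to -0.090 for Fkbp5, -0.15 to 0.025 for Tsc22d3, -0.53 to 0.030 for Sgk1, -0.27 to 0.092 for Zbtb16, -0.43 to 0.042 for Mt1 and -0.27 to 0.24 for Mt2.

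Median scaling turned Fkbp5 in HF75 (0.016) and, for the mean of the doses, Fkbp5 (0.028) and Tsc22d3 (0.23). Leaving out each week gave -0.92 to 0.15 for Fkbp5 in HF75, and -0.68 to 0.17 for Fkbp5, -0.30 to 0.039 for Tsc22d3 and 0 to 1 called probes for the mean of the doses. In the change of the diet difference array weights called 1 probe.

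Late against early in LFC called 149 probes. Normexp background called 0, quantile scaling 97, median scaling 78, outlier spots kept 82, detection on every array 40 and array weights 330. Taking week 0 only as early called 3, a linear trend 0 and the t-test without moderation 39. Leaving out each time point gave 50 to 213. Sgk1 turned with normexp (-0.0062), and with week 0 only Sgk1 (-1.44), Zbtb16 (-0.54) and Mt1 (-0.13) turned. Nr3c1 turned under the trend (0.0115), and Mt2 over spots not saturated (-1.17), a setting added after the data were seen. That setting removes spots by their level: it keeps weeks 3 and 12, the lowest late LFC arrays, and only week 3 of the late HFC arrays, so its values (1.87 late against early in HFC, 2.11 for HFC minus LFC in weeks 3 to 18, 3.36 for the change of that difference) say nothing of stability. Sgk1 ranged from -0.21 to 0.79 when each time point was left out.

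Late against early in HFC called 0 probes. Quantile scaling called 1, median scaling 41, array weights 8032 with 4 members, and week 0 only as early 4; leaving out each time point gave 0 to 825 probes and 0 to 2 members. Zbtb16 kept its sign throughout, from 1.44 to 1.89 when each time point was left out. Sgk1 turned with week 0 only (-1.17), and the second brightest Fkbp5 probe gave -0.072.

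With time-point means kept (no replicate block), r of Fkbp5 was 0.56 with Tsc22d3 and 0.47 with Zbtb16, 0.57 and 0.47 without LFC week 3 and HFC week 12, and 0.46 and 0.63 without the 2 farthest arrays, which also gave 0.40 with Sgk1 (pooled over its low and high sets) and 0.45 with Mt1. With Mt2 these were 0.20, 0.21 and 0.35, where the within-time-point r was -0.06. Mt2 levels are limited by saturation.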
